A study of Mus musculus with 20 samples.

Results

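The genes described here are 40 genes of DNA replication and S phase, read in all 20 RNA-seq libraries of the mouse hepatoma line Hepa-1. They were chosen by name and matched to the count table through their Entrez gene IDs, and 40 of the 40 were found among the 23373 gene IDs of the table. All 40 also passed the filter on low counts, which kept 14343 genes for testing. By role they comprise 11 genes of origin licensing, 6 of helicase activation, 8 of the polymerases and primase, 10 of the sliding clamp, its loader, single-strand binding and lagging-strand processing, 4 of nucleotide supply, and the transcription factor gene E2f1.

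Hepa-1 is an established line of hepatoma cells with an active aryl hydrocarbon receptor, the receptor that benzo[a]pyrene (B[a]P) binds. The labels gave 10 groups of 2 libraries, all from Hepa-1 cells kept in medium with 5% serum and split at 3-day intervals. The passage 20 cells had been control-grown or grown in hexavalent chromium, Cr(VI), and each kind received B[a]P or its solvent DMSO for 8 hours. At passage 25 the same 4 groups were joined by recovered cells, which had grown for 20 passages with Cr(VI) and for 5 without it before the same treatments. These libraries are called passage 25 after their passage label, but their titles hold 27, so both the passage and the time without Cr(VI) are uncertain to that extent. The concentrations are labelled as 0.5 mM of Cr(VI) and 5 mM of B[a]P, and no use was made of the units. The labels do not say whether the duplicates of a group were separate cultures, so a p-value here measures no more than the spread between libraries.

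DNA replication starts at origins that are licensed in G1. The origin recognition complex, CDC6 and CDT1 load rings of MCM2 to MCM7 onto DNA, and geminin (Gmnn) holds CDT1 back outside that window. In S phase MCM10, CDC45 and the GINS complex turn the MCM ring into an active helicase, primase with polymerase alpha lays primers, and polymerases delta and epsilon extend them on the PCNA clamp. Many of these genes are transcribed under E2F factors and are highest in cells that pass from G1 into S phase, and in a dividing hepatoma line their summed RNA is known to follow the share of cycling cells. In RNA from bulk cultures, fewer cells in S phase and less RNA per cell cannot be told apart.

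Promoter windows from RefSeq (build GRCm38.p6), from 250 bases before to 50 bases after an annotated start, were matched for 32 of the 40 genes and held 37 starts. Any of 3 E2F-type strings (TTTCCCGC, TTTGGCGC and TTTCGCGC, searched on both strands, overlaps allowed) stood in 13 of the 37 windows, 35.1%, and these belonged to 13 genes. The same strings stood in 1.85% of all 32851 windows and in 3.21% of the windows of tested genes. The windows of 5 of the genes are shown 5′ to 3′ on the strand of the gene, with each string in capitals. Pole2 is shown because it passed the main test of B[a]P, Pola1 and Cdc6 because their levels are followed in every library, and Mcm3 and Mcm6 as examples of the 5 genes that hold more than 1 of the strings, the others being Mcm5, Mcm7 and Rfc3. The Pole2 window is chr12:69228141-69228440, the Pola1 window chrX:93632106-93632405, the Mcm3 window chr1:20820263-20820562 and the Mcm6 window chr1:128359656-128359955, all on the minus strand, and the Cdc6 window is chr11:98907901-98908200 on the plus strand.
Pole2: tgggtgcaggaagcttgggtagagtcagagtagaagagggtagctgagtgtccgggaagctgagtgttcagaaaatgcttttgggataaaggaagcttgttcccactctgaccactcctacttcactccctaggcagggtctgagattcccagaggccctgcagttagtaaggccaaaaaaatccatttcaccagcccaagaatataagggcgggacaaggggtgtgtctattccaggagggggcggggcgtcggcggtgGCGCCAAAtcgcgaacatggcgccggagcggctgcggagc
Pola1: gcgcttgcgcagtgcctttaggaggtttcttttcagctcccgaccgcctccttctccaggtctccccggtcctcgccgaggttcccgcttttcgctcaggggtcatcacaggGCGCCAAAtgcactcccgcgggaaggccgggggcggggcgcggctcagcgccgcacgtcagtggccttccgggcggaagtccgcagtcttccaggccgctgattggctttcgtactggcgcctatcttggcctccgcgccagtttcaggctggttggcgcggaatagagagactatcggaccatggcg
Mcm3: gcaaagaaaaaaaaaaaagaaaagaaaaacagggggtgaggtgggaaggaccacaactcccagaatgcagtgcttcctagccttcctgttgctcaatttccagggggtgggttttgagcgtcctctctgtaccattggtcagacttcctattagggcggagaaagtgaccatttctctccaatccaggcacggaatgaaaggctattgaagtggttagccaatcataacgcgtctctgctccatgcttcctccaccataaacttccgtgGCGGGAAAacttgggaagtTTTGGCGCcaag
Mcm6: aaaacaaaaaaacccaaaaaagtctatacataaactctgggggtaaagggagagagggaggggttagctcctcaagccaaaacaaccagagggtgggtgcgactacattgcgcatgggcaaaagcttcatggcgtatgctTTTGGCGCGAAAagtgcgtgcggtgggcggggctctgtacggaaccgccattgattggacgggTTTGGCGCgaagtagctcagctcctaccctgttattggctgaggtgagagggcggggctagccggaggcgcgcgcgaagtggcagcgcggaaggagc
Cdc6: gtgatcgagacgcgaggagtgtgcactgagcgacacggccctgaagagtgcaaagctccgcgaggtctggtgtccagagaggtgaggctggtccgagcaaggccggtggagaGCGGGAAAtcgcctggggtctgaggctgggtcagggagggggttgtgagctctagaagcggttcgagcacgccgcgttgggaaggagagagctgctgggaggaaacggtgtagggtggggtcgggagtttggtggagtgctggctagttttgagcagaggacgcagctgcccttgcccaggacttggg

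In Pola1 and in Cdc6 the string began 138 bases before the start of the window shown, and in Pole2 it began 10 bases after that start. The annotated span of Cdc6 begins at chr11:98907709 on the plus strand, and that of Pola1 at chrX:93632387 on the minus strand. In both genes the start used and the string therefore lay inside the annotated span, not upstream of it. The Mcm6 window held 3 strings, of which the pair nearest the 5′ end overlapped. The 13 genes with a string were Orc1, Cdc6, Cdt1, Mcm3, Mcm5, Mcm6, Mcm7, Gins3, Pola1, Pold1, Pole2, Rfc3 and Lig1. Other motifs were closer to the background. CCAAT stood in 56.8% of the 37 windows and in 38.5% of the windows of tested genes, the GC box GGGCGG in 70.3% and 58.6%, the xenobiotic response element core TNGCGTG in 13.5% and 7.51%, and the cell-cycle homology string TTTGAA in 13.5% and 12.9%. A match is a description of letters in the window and does not show binding.

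Total counts per library ranged from 20976045 to 37930720, and the 40 genes together took between 0.258% and 0.484% of them. Cyp1a1, the classical target of the aryl hydrocarbon receptor, separated the libraries as labelled: it lay between 25.1 and 62.4 CPM (counts scaled to a common TMM-corrected library size) in the 10 DMSO libraries and between 930.2 and 2089 CPM in the 10 B[a]P libraries. Of 9 markers of hepatocytes and hepatoma, 6 reached 1 CPM in some library, while Apoa1 stayed under 0.1 CPM in every library. A set of 6 libraries stood apart: replicate 2 of each group of passage 25 detected 14776 to 15329 genes and gave 29.6% to 34.3% of its counts to its 100 most abundant genes, against 16049 to 17173 genes and 15.7% to 26.0% in replicate 1 of those groups. At passage 20, the duplicates of the Cr(VI)-grown DMSO group differed by over 2-fold in 32.2% of genes, against 1.58% to 2.45% in the other groups of that passage. Leaving out these or other libraries was followed for the median of the 40 genes and the number past the threshold. Where the sign turned or the value moved by over 1.5 times, the value without them is given. The signs of single genes were not followed in this way at each result.

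The replicate 2 libraries of passage 25 also differed from replicate 1 in the genes described here. Of the 40 genes, 23 were higher in replicate 2 in all 6 groups of passage 25 (33.8% of all genes tested) and 8 were lower in all 6 (36.9% of all genes tested). Pold2, a subunit of polymerase delta, had a mean log2 difference of 1.84 between replicate 2 and replicate 1, Mcm5 of 1.81 and Tk1, thymidine kinase, of 1.77. Pola1, the catalytic subunit of polymerase alpha, lay at the other end with -1.58, followed by Orc6 with -0.96 and Pcna, the sliding clamp, with -0.93. The genes therefore did not differ between replicates as 1 block, and comparisons at passage 25 were also read between libraries of the same replicate number.

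**Figure D1:**
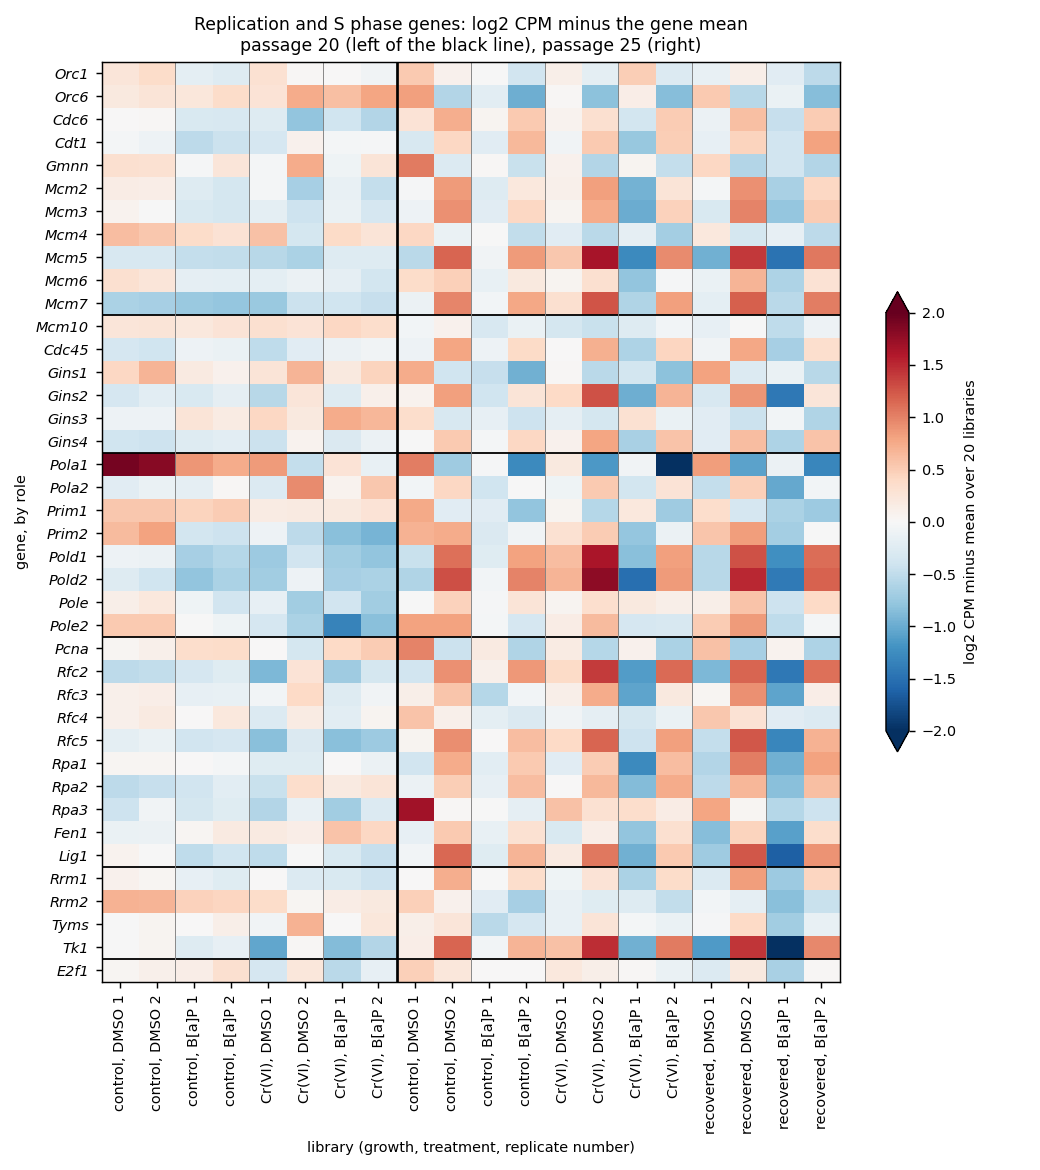
Heat map of the 40 genes (rows, by role) in the 20 libraries (columns, by growth, treatment and replicate number), coloured by log2 CPM minus the gene's mean over all libraries. In passage 25, right of the black line, replicate 2 columns are redder than replicate 1 for most genes, with Pola1, Orc6 and Pcna going the other way.

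In control-grown cells of passage 20 under DMSO, the levels per transcript length covered a wide range. Length was that of the principal transcript in GENCODE M21, and the scale is CPM per kb. Pcna was highest at 121.2 ± 3.89 CPM per kb (SD, n = 2), followed by Mcm3 at 90.6 ± 3.75 and Tk1 at 88.3 ± 3.05. The lowest were Gins3 at 4.73, Pole at 4.43 ± 0.186 and Pole2, the second subunit of polymerase epsilon, at 4.05. Of the 39 neighbours in this order, 14 had duplicate values that overlapped, so their order is not resolved. Among the MCM ring genes the order was Mcm3, Mcm7 (77.7 ± 1.17), Mcm6 (69.1 ± 2.72), Mcm5 (57.7 ± 0.330), Mcm2 (43.6 ± 0.367) and Mcm4 (40.02 ± 1.28), although their proteins form 1 ring with 1 copy of each.

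Over the 5 pairs of B[a]P and DMSO groups, Prim2 and Pole2 fell with B[a]P and the other 38 genes did not pass an adjusted p of 0.05 in edgeR's quasi-likelihood test. With 3.74% of all genes called lower and 7.59% called in either direction, 2 of 40 is near the background. The signs were less even: 37 of the 40 genes had a negative log2 difference, with a median of -0.29, against a median of -0.00 and 50.4% negative over all genes tested. That median was -0.17 without replicate 2 of the recovered DMSO group. A further 7 had an unadjusted p under 0.05, which makes 9, all lower. The 3 genes with a positive difference were Gins3 at 0.15 (adjusted p = 0.744), Fen1 at 0.05 (adjusted p = 0.983) and Rpa2 at 0.02 (adjusted p = 0.996). When 1 library was left out, Fen1 and Rpa2 turned negative in at least 1 fit, to -0.13 and -0.18. Cdt1, Mcm5, Mcm10, Pcna, Rfc2 and Rpa1 turned positive in at least 1 fit, with highest values from 0.01 for Mcm10 to 0.16 for Pcna. The share of all counts taken by the 40 genes was lower under B[a]P in all 6 same-numbered pairs of libraries of passage 25. With passage 20 matched by number too, it was lower in 9 of 10, but the numbers were not taken as paired at that passage. The exception was replicate 2 of Cr(VI)-grown cells of passage 20, with 0.341% under DMSO and 0.359% under B[a]P. Replicate 1 there was nearly equal, with 0.377% and 0.374%.

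The tests above ignored the replicate numbers, while same-numbered libraries of passage 25 deviated together. With a replicate block at passage 25, 18 of the 40 genes passed, all lower, against 26.9% of all genes called in either direction and 13.5% called lower. Without the 6 replicate 2 libraries of passage 25, 13 passed, all lower (14.4% of all genes), and without those and replicate 2 of the Cr(VI)-grown DMSO group of passage 20, 30 passed, all lower (44.7% of all genes). Both of these fits leave groups with a lone library, which is assumed to vary like the groups that kept both.

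Prim2 encodes the large, iron-sulfur subunit of primase. In control-grown cells it stood at 33.4 and 37.7 CPM under DMSO and at 16.7 and 16.1 CPM under B[a]P at passage 20. At passage 25 the control-grown libraries held 34.7 and 36.1 CPM under DMSO and 17.6 and 20.5 CPM under B[a]P. In Cr(VI)-grown cells it went from 19.9 and 15.0 CPM to 12.1 and 11.3 CPM at passage 20, and from 26.5 and 30.6 CPM to 12.5 and 19.8 CPM at passage 25. Both B[a]P libraries lay under both DMSO libraries in each of these 4 pairs. The recovered cells repeated this, with 31.4 and 38.4 CPM under DMSO and 13.5 and 21.4 CPM under B[a]P. The mean log2 difference was -0.88 ± 0.14 (SE, adjusted p = 0.00175), and the call was kept in all 20 fits that each left out 1 library.

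Pole2 was measured at low levels, between 1.89 and 8.61 CPM. In control-grown cells of passage 20 it stood at 6.90 and 6.90 CPM under DMSO and at 4.74 and 4.49 CPM under B[a]P. In Cr(VI)-grown cells of that passage it stood at 3.79 and 3.07 CPM under DMSO and at 1.89 and 2.67 CPM under B[a]P. At passage 25 the 6 DMSO libraries lay between 5.32 and 8.61 CPM and the 6 B[a]P libraries between 3.35 and 4.67 CPM, so the treatments did not overlap within that passage. The mean log2 difference was -0.77 ± 0.14 (SE, adjusted p = 0.00471), and this call too was kept in all 20 fits that left out 1 library.

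All 8 genes of the polymerases and primase, Prim2 and Pole2 among them, had a negative difference over the 5 pairs, with a median of -0.45. Pola1 had a log2 difference of -0.69 ± 0.38 (adjusted p = 0.371, or 0.00562 with the replicate block at passage 25). It stood at 56.5 and 53.4 CPM in control-grown DMSO cells of passage 20 and at 27.9 and 25.1 CPM under B[a]P. In Cr(VI)-grown cells of that passage the values were 27.3 and 10.9 CPM under DMSO and 18.2 and 13.5 CPM under B[a]P, which overlap. At passage 25 replicate 1 libraries held 30.5, 17.3 and 26.9 CPM under DMSO in control-grown, Cr(VI)-grown and recovered cells, and 14.8, 14.3 and 13.9 CPM under B[a]P. Replicate 2 libraries were lower throughout, at 9.15, 6.76 and 7.18 CPM under DMSO and 6.21, 3.27 and 6.11 CPM under B[a]P. B[a]P was thus lower in each of the 6 same-numbered pairs of passage 25. On the log2 scale, however, the difference between replicates was larger than that between treatments. With the replicate block at passage 25, Pold1 and Pold2 of polymerase delta and Prim1, the catalytic primase subunit, also passed as lower, at -0.45, -0.53 and -0.29.

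All 11 genes of origin licensing had a negative difference over the 5 pairs, with a median of -0.26. When 1 library was left out, Cdt1 and Mcm5 reached at most 0.05 and 0.07. The lowest was Mcm2 at -0.44 ± 0.23 (adjusted p = 0.334, or 0.00457 with the replicate block at passage 25). Mcm2 stood at 148 and 146 CPM under DMSO and at 112 and 104 CPM under B[a]P in control-grown cells of passage 20. In Cr(VI)-grown cells of passage 20 it held 130 and 84.3 CPM under DMSO and 120 and 95.3 CPM under B[a]P, which overlap. At passage 25 the DMSO libraries of control-grown, Cr(VI)-grown and recovered cells held 131, 144 and 130 CPM in replicate 1 and 240, 236 and 251 CPM in replicate 2. Under B[a]P they held 112, 69.1 and 85.1 CPM in replicate 1 and 154, 159 and 178 CPM in replicate 2. Within each replicate number every B[a]P library lay under every DMSO library. Mcm3 and Mcm6 passed with that block as well, at -0.35 and -0.40, and were lower in all 6 same-numbered pairs.

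Cdc6 and Cdt1, the loaders of the MCM ring, had smaller mean differences. Cdc6 stood at 66.0 and 67.4 CPM under DMSO and at 53.3 and 52.8 CPM under B[a]P in control-grown cells of passage 20. In Cr(VI)-grown cells of that passage it held 54.96 and 38.4 CPM under DMSO and 50.1 and 43.7 CPM under B[a]P. At passage 25 its replicate 1 libraries held 80.1, 68.9 and 60.9 CPM under DMSO in control-grown, Cr(VI)-grown and recovered cells and 68.4, 51.0 and 48.0 CPM under B[a]P. Replicate 2 held 109, 82.5 and 101 CPM under DMSO and 94.3, 93.3 and 93.8 CPM under B[a]P, so that 5 of the 6 same-numbered pairs were lower with B[a]P. The mean log2 difference of Cdc6 was -0.16 ± 0.18 (adjusted p = 0.813).

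For Cdt1 the treatments separated in 1 of the 5 pairs, control-grown cells of passage 20. In control-grown cells of passage 20 it stood at 130 and 124.6 CPM under DMSO and at 92.6 and 99.4 CPM under B[a]P, while in Cr(VI)-grown cells it stood at 105 and 141 CPM and at 129 and 132 CPM. At passage 25 replicate 1 held 107, 127 and 118.9 CPM under DMSO and 114, 79.2 and 103 CPM under B[a]P in control-grown, Cr(VI)-grown and recovered cells. Replicate 2 held 179, 192 and 183 CPM under DMSO and 209, 187 and 234 CPM under B[a]P. Only 3 of the 6 same-numbered pairs were lower with B[a]P, and the mean log2 difference was -0.05 ± 0.22 (adjusted p = 0.980).

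Of the 6 helicase activation genes 5 had a negative difference, with a median of -0.11. Gins1 was lowest at -0.52 ± 0.20 (adjusted p = 0.151, or 0.00396 with the replicate block at passage 25) and Gins2 followed at -0.41 ± 0.28. Mcm10, which stabilises the helicase at the fork, held 34.2 and 34.5 CPM under DMSO and 33.8 and 34.9 CPM under B[a]P in control-grown cells of passage 20. In Cr(VI)-grown cells of that passage it held 36.1 and 35.1 CPM under DMSO and 38.6 and 37.1 CPM under B[a]P. At passage 25 the 6 DMSO libraries lay between 21.3 and 30.8 CPM and the 6 B[a]P libraries between 20.3 and 27.9 CPM. Its mean log2 difference was -0.02 ± 0.11 (adjusted p = 0.980) and 4 of the 6 same-numbered pairs of passage 25 were lower.

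Of the 10 genes of the clamp, its loader, single-strand binding and the lagging strand, 8 had a negative difference, with a median of -0.21. Rfc3, a subunit of the clamp loader, was lowest at -0.58 ± 0.21 (adjusted p = 0.134, or 0.000425 with the replicate block at passage 25). It was lower with B[a]P in all 6 same-numbered pairs of passage 25. Rpa3, the smallest subunit of the single-strand binding protein, had a difference of -0.50 ± 0.20 (adjusted p = 0.176). The highest of its 20 values, 58.4 CPM, was in replicate 1 of the control-grown DMSO group of passage 25, whose replicate 2 held 18.4 CPM. Without that library the difference of Rpa3 was -0.29 (adjusted p = 0.374), and without replicate 2 of that group it was -0.62 (adjusted p = 0.0316).

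Pcna, which is also a known target of p53, was 1 of 4 genes with both B[a]P libraries over both DMSO libraries in both pairs of passage 20, beside Cdc45, Gins3 and Fen1 (14.6% of all genes). At passage 20 both B[a]P libraries lay over both DMSO libraries in control-grown cells, at 223 and 225 CPM against 180 and 188 CPM. The Cr(VI)-grown cells did the same, at 229 and 248 CPM against 175 and 137 CPM. Control-grown libraries of passage 25 held 347 and 129 CPM under DMSO and 198 and 115 CPM under B[a]P, the Cr(VI)-grown libraries 196 and 117.6 CPM and 186 and 113 CPM, and the recovered libraries 262 and 110 CPM and 184 and 113 CPM. Thus 5 of the 6 same-numbered pairs of passage 25 were lower with B[a]P, as they were for Cdc45, against 4 for Fen1 and 3 for Gins3. Over the 5 pairs the mean log2 difference was -0.02 ± 0.23 (adjusted p = 0.996).

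All 4 nucleotide supply genes had a negative difference, with a median of -0.33. Rrm2, the regulatory subunit of ribonucleotide reductase and its S phase component, had a difference of -0.34 ± 0.12 (adjusted p = 0.111, or 0.0107 with the replicate block at passage 25) and is the third gene that DESeq2 called (adjusted p = 0.0152). It stood at 145 and 144 CPM under DMSO and at 123.2 and 120 CPM under B[a]P in control-grown cells of passage 20, and at 116 and 92.3 CPM and 100 and 102 CPM in those grown with Cr(VI). At passage 25 replicate 1 libraries held 124.8, 80.7 and 86.1 CPM under DMSO and 76.7, 75.5 and 50.3 CPM under B[a]P in control-grown, Cr(VI)-grown and recovered cells. Replicate 2 libraries held 95.6, 75.6 and 79.3 CPM under DMSO and 56.5, 63.7 and 65.7 CPM under B[a]P. It was lower in all 6 same-numbered pairs of passage 25. Tyms, thymidylate synthase, passed with that block as well, at -0.31.

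E2f1, the activator that drives many of the other genes, had a difference of -0.20 ± 0.14 (adjusted p = 0.551). In control-grown cells of passage 20 it held 88.6 and 93.1 CPM under DMSO and 94.9 and 108 CPM under B[a]P, and in Cr(VI)-grown cells 69.0 and 101 CPM and 59.7 and 77.6 CPM. Control-grown libraries of passage 25 held 120.8 and 101 CPM under DMSO and 86.9 and 87.5 CPM under B[a]P, the Cr(VI)-grown libraries 101 and 93.8 CPM and 88.1 and 78.7 CPM, and the recovered libraries 71.6 and 99.1 CPM and 55.2 and 88.1 CPM. All 6 same-numbered pairs of passage 25 were lower with B[a]P. The 13 genes with an E2F-type string in the promoter window had a median difference of -0.33, and the 19 genes whose windows held none had a median of -0.26.

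**Figure D2:**
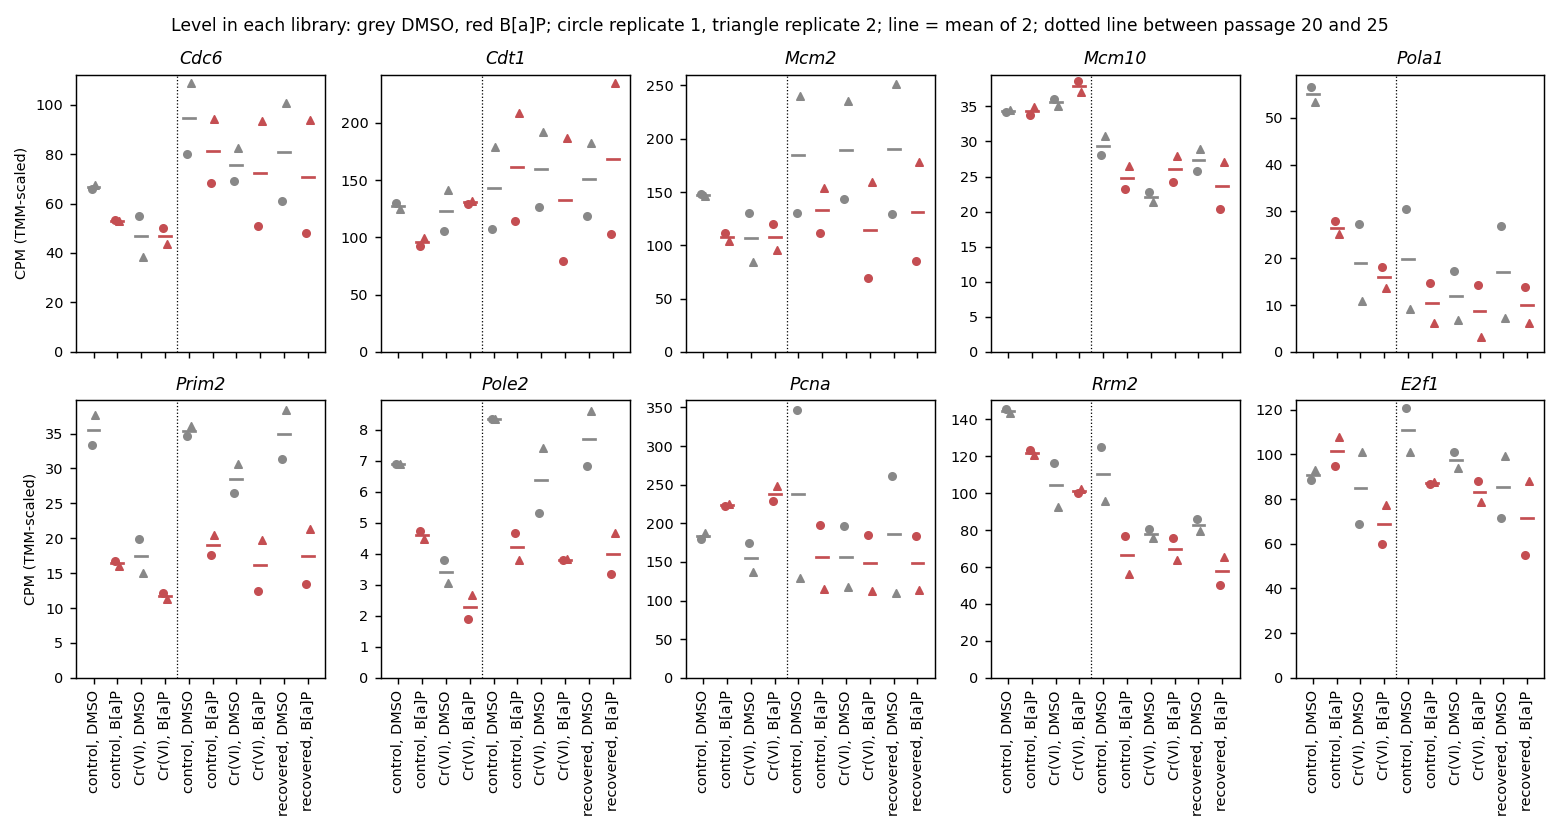
CPM of 10 genes in each library (vertical axes from 0), with DMSO in grey, B[a]P in red, replicate 1 as circles, replicate 2 as triangles and the mean of 2 as a line. Prim2 and Pole2 are lower in red in every pair of groups. For Cdt1 the gap between circles and triangles of passage 25 exceeds the gap between colours in every group, and for Mcm2 and Pola1 in part of the groups.

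Read pair by pair, the medians of the 40 genes lay between -0.43 and -0.08, and those of passage 25 and of Cr(VI)-grown cells moved when 1 library was left out. No gene of the 40 passed edgeR's test in any single pair. At an unadjusted p under 0.05 there were 1 and 6 genes in control-grown cells of passage 20 and 25, 0 and 2 in Cr(VI)-grown cells and 3 in recovered cells, all lower, and DESeq2 called 1 gene in the first of these, Prim2. In control-grown cells of passage 20 the median was -0.20 and 27 of 40 were negative, against 48.9% of all genes (1.23% of all genes called). The lowest there were Prim2 at -1.11 (adjusted p = 0.140), Pola1 at -1.05 (adjusted p = 0.933) and Pole2 at -0.58 (adjusted p = 0.656), and the highest were Gins3 at 0.30, Pcna at 0.28 and Cdc45 at 0.26. Both B[a]P libraries lay under both DMSO libraries for 25 of the 40 genes (38.97% of all genes) and over both for 8 (40.4% of all genes). In a fit of these 4 libraries alone, whose duplicates differed little, 26 of the 40 passed, 21 lower and 5 higher, against 60.3% of all genes.

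In control-grown cells of passage 25 the median was -0.38 and 37 of 40 were negative, against 53.9% of all genes (0.0488% of all genes called). The lowest were Rpa3 at -1.17, Pole2 at -0.98 (adjusted p = 0.815) and Gins1 at -0.97, and the highest were Cdt1 at 0.18, Rfc2 at 0.13 and Rpa2 at 0.06. In recovered cells the median was -0.43 and 38 of 40 were negative, against 46.5% of all genes (0.0558% of all genes called). The lowest were Prim2 at -1.003 (adjusted p = 0.689), Rpa3 at -0.95 and Pole2 at -0.95 (adjusted p = 0.807), and the highest were Cdt1 at 0.16, Gins3 at 0.01 and Rfc2 at -0.13. With the replicate block at passage 25, Prim2 passed as lower in control-grown cells of passage 20 (adjusted p = 0.00376; 11.8% of all genes called), in control-grown cells of passage 25 (adjusted p = 0.0375; 2.38%) and in recovered cells (adjusted p = 0.0285; 1.35%).

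The size of these medians at passage 25 rests on single libraries. In recovered cells the median was -0.70 and -0.0042 without replicate 1 or 2 of the DMSO group and -0.05 and -1.02 without replicate 1 or 2 of the B[a]P group. In control-grown cells it was -0.12 without replicate 2 of the DMSO group and -0.21 without replicate 1 of the B[a]P group, and in Cr(VI)-grown cells -0.51 without replicate 1 of the DMSO group and -0.74 without replicate 2 of the B[a]P group. Each of these fits leaves different replicate numbers in the 2 groups compared. Between libraries of the same number, the median of the 40 genes lay between -0.58 and -0.25 in the 6 pairs, and 31 to 39 of the 40 were lower in each, against 43.9% to 53.1% of all genes. Without all replicate 2 libraries of passage 25, the fitted medians were -0.28 in control-grown, -0.61 in Cr(VI)-grown and -0.60 in recovered cells.

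In Cr(VI)-grown cells of passage 25 the median was -0.26 and 34 of 40 were negative, against 41.8% of all genes (0.0558% of all genes called). The lowest were Pold2 at -1.23, Pold1, which was 2.001-fold lower, and Mcm5 at -0.98, each with an adjusted p of 0.970, and the highest were Gins3 at 0.37, Mcm10 at 0.24 and Orc1 at 0.19. With the replicate block at passage 25, those 3 lowest genes passed as lower with Prim2 and Rfc3, which makes 5 (4.36% of all genes called). Without the replicate 2 libraries of passage 25, 4 passed, all lower (2.07% of all genes). In Cr(VI)-grown cells of passage 20 the median was -0.08, which was also the median of all genes. There 23 of 40 were negative, against 57.6% of all genes, so the signs matched the background (0.0418% of all genes called). The lowest there were Pole2 at -0.59, Prim2 at -0.58 and Rfc3 at -0.35, and the highest were Pcna at 0.62, Gins3 at 0.38 and Fen1 at 0.34. Both B[a]P libraries lay under both DMSO libraries for 5 of the 40 (16.2% of all genes) and over both for 8 (17.1% of all genes). Without replicate 2 of the DMSO group, which stood apart, the median turned to 0.09 with 15 of 40 negative, and without replicate 1 it was -0.13 with 24 negative. Without replicate 1 or 2 of the B[a]P group it was -0.04 or -0.01.

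Across the 6 same-numbered pairs of passage 25, which include 2 from each growth history, 17 of the 40 genes were lower with B[a]P in every pair (10.01% of all genes) and 0 were higher in every pair (12.02% of all genes). The 17 were Mcm2, Mcm3, Mcm6, Gins1, Gins2, Gins4, Pola1, Pola2, Prim2, Pole2, Rfc3, Rfc5, Rpa3, Lig1, Rrm2, Tk1 and E2f1, so that every role was represented.

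**Figure D3:**
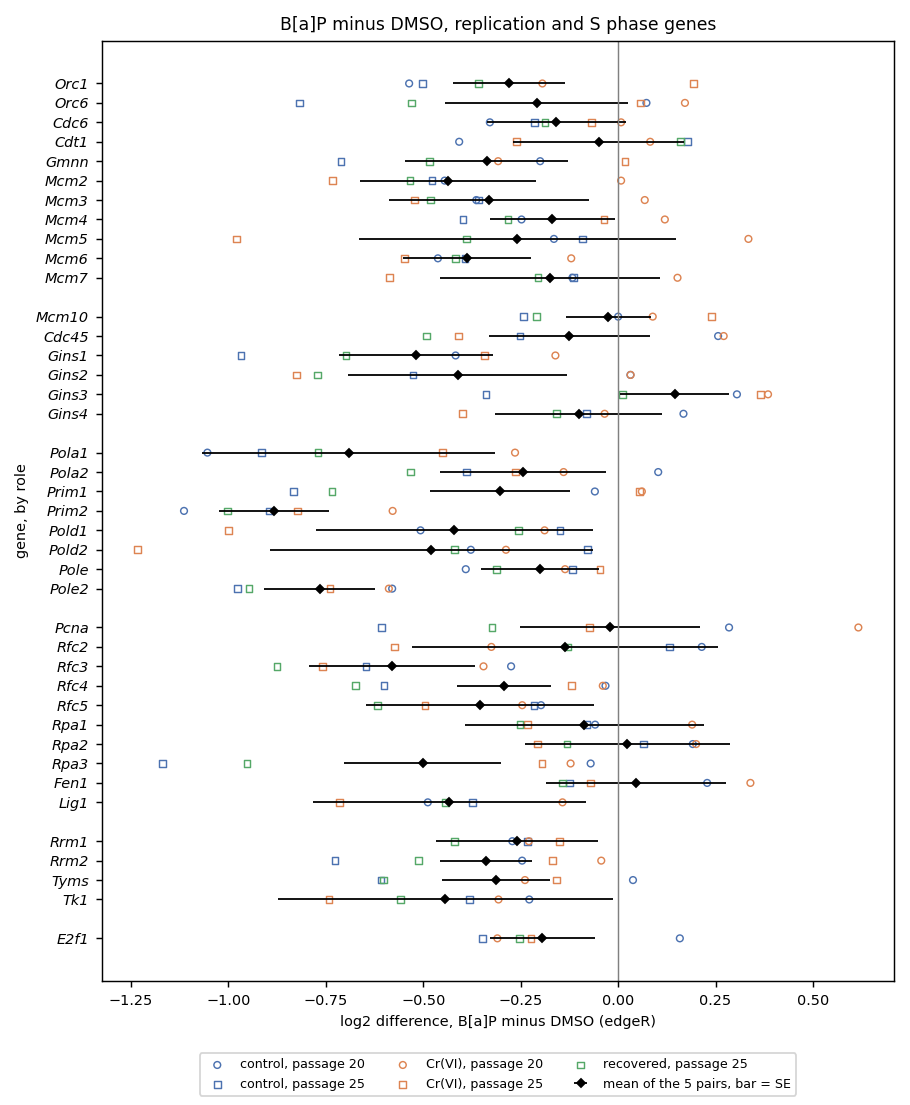
Log2 difference between B[a]P and DMSO (horizontal axis) for the 40 genes (rows, by role), with the mean of the 5 pairs as black diamonds with SE bars and the single pairs as open symbols. Most diamonds lie left of 0, with Prim2 and Pole2 farthest from 0 relative to their SE.

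Growth with Cr(VI) gave no call among these genes in the main test. At both passages together, at passage 20 and at passage 25, 0% of all genes passed. Under DMSO, Cr(VI)-grown cells differed from control-grown cells by a median of -0.17 over both passages. There 26 of 40 were negative, against 52.3% of all genes. That median was -0.01 without replicate 2 of the control-grown DMSO group of passage 25, -0.05 without replicate 1 of the Cr(VI)-grown one, -0.11 without replicate 1 of the Cr(VI)-grown DMSO group of passage 20 and -0.07 without all replicate 2 libraries of passage 25. By DESeq2 0 of the 40 passed in each of these comparisons, and 3, 2 and 0 of the 40 had an unadjusted p under 0.05 in edgeR. Over both passages the lowest were Pola1 at -1.12 ± 0.60, Pole2 at -0.70 ± 0.22 and Prim2 at -0.67 ± 0.22, each with an adjusted p of 0.895. The highest were Rfc2 at 0.44, Pola2 at 0.35 and Pold2 at 0.33.

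At passage 20 the median was -0.16 with 26 of 40 negative, against 49.0% of all genes. Without replicate 2 of the Cr(VI)-grown group it was -0.28 with 34 negative, and without replicate 1 it was 0.0026 with 20 negative. The differences there were Pola1 at -1.53 ± 0.85 (adjusted p = 0.886), Prim2 at -1.02 ± 0.32 (adjusted p = 0.601) and Pole2 at -1.01 ± 0.32 (adjusted p = 0.625) at the low end, and Pola2 at 0.64, Rpa2 at 0.50 and Gins3 at 0.42 at the high end. Both Cr(VI)-grown DMSO libraries lay under both control-grown ones for 17 of the 40 genes (25.2% of all genes) and over both for 5 (23.96% of all genes). The 17 included Mcm2, Mcm3, Mcm5, Mcm6, Cdc6, Pola1, Prim1, Prim2, Pold1, Pole, Pole2 and Rrm2, and the 5 were Orc6, Mcm10, Gins3, Rpa2 and Fen1. Prim2 passed as lower with the replicate block at passage 25 (adjusted p = 0.0426; 1.02% of all genes called). The lowest at passage 25 were Gmnn at -0.73, Pola1 at -0.72 and Rpa3 at -0.63, and the highest were Pold2 at 0.70, Pold1 at 0.69 and Mcm5 at 0.65, with adjusted p of 0.971 for each. The median at passage 25 was -0.14. It was -0.28 and -0.01 without replicate 2 or 1 of the Cr(VI)-grown group, 0.09 without replicate 2 of the control-grown group and -0.03 without all replicate 2 libraries, so its sign did not hold.

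Recovered cells differed from control-grown cells of passage 25 under DMSO by a median of -0.06, and 0 of the 40 passed by edgeR or DESeq2 (0% of all genes, and 0 of the 40 at an unadjusted p under 0.05). The sign of that median did not hold either: it was 0.26 and -0.49 without replicate 1 or 2 of the recovered group, -0.24 and 0.12 without replicate 1 or 2 of the control-grown group, and -0.30 without all replicate 2 libraries. The lowest were Rpa3 at -0.62 ± 0.45, Gmnn at -0.53 ± 0.47 and Rrm2 at -0.41 ± 0.26, and the highest were Rfc3 at 0.19, Pold2 at 0.18 and Rpa1 at 0.14, all with an adjusted p of 1. Prim2 held 31.4 and 38.4 CPM in recovered cells and 34.7 and 36.1 CPM in control-grown cells. The recovered and the Cr(VI)-grown comparisons of passage 25 share their control libraries.

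**Figure D4:**
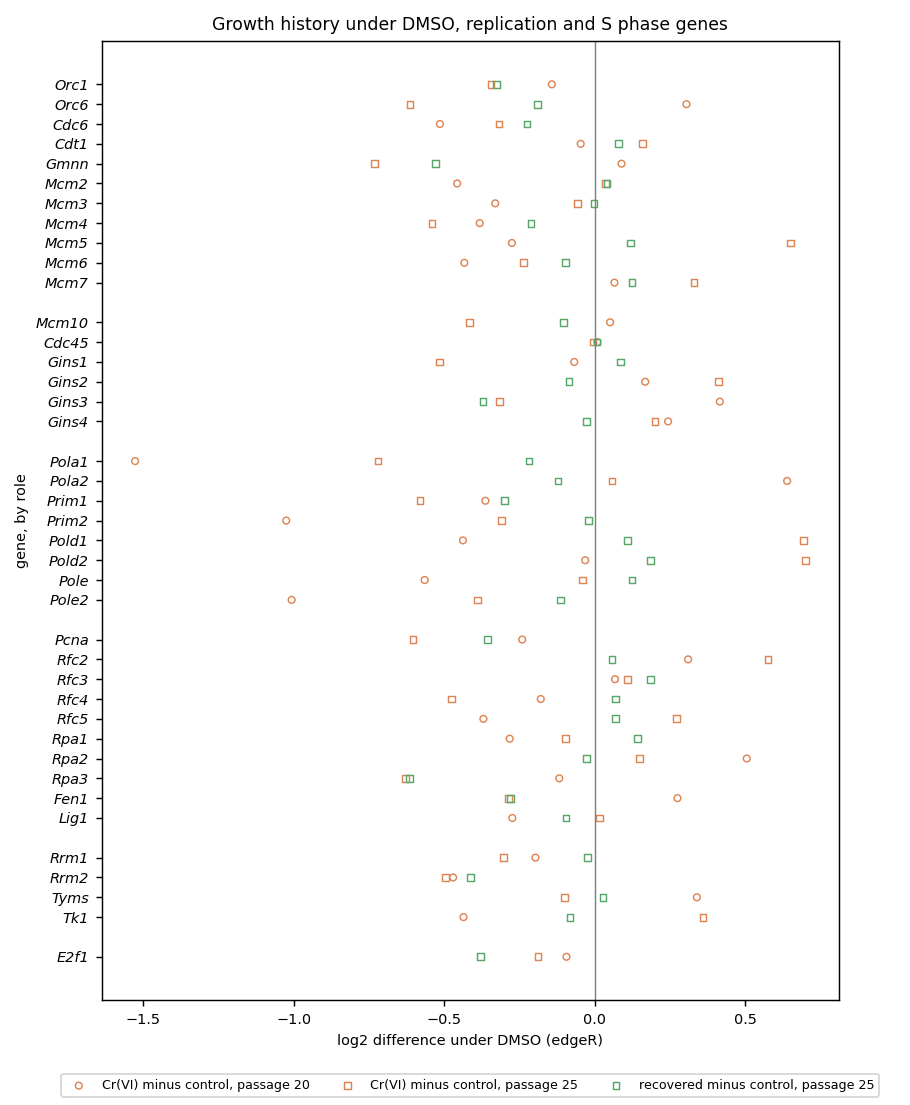
Log2 difference under DMSO (horizontal axis) of Cr(VI)-grown minus control-grown cells at passage 20 and 25 and of recovered minus control-grown cells, for the 40 genes (rows, by role). Single-gene SE lay between 0.24 and 0.96 and is not drawn, and the leftmost points are Pola1, Prim2 and Pole2 at passage 20.

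The effect of B[a]P was not shown to differ with growth history. Between Cr(VI)-grown and control-grown cells, the interaction with B[a]P had a median of 0.09 over the 40 genes and of 0.09 over all genes, and 0% of genes passed. The lowest were Rfc2 at -0.62, Pold2 at -0.53 and Pold1 at -0.27, and the highest were Pola1 at 0.63, Orc1 at 0.52 and Prim1 at 0.50, with an adjusted p of 1.00 for each. For recovered against control-grown cells the median was -0.06, 0% of genes passed, and values ran from -0.40 for Rfc5 to 0.35 for Gins3. In neither did any of the 40 reach an unadjusted p under 0.05, and DESeq2 also called 0 of the 40. The SE of single genes lay between 0.24 and 0.96 in the first and between 0.34 and 1.36 in the second. When 1 library was left out, the first median ran from -0.18 without replicate 2 to 0.21 without replicate 1 of the Cr(VI)-grown B[a]P group of passage 25. The second ran from -0.67 without replicate 2 of the recovered B[a]P group to 0.33 without replicate 2 of the recovered DMSO group, so neither kept its sign.

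Passage and library set cannot be told apart, because the 2 passages carry separate sets of sample names. In control-grown DMSO cells, 33 of the 40 genes were higher at passage 25 than at passage 20, with a median of 0.31 against -0.02 over all genes, and 0 of the 40 passed (0.558% of all genes called, and 1 of the 40 at an unadjusted p under 0.05). Without replicate 2 of the passage 25 group the median was 0.12, with 17 of 40 negative. The highest were Rpa3 at 1.31 ± 0.45 (adjusted p = 0.348), Mcm7 at 1.18 ± 0.64 (adjusted p = 0.695) and Pold2 at 0.97 ± 0.93 (adjusted p = 0.813). The lowest were Pola1 at -1.47 ± 0.85 (adjusted p = 0.722), Mcm4 at -0.41 ± 0.36 (adjusted p = 0.798) and Rrm2 at -0.39 ± 0.26 (adjusted p = 0.753). In control- and Cr(VI)-grown cells, the B[a]P effect itself was more negative at passage 25 than at passage 20 for 35 of the 40 genes. The median over the 40 was -0.29, against 0.05 over all genes, of which 45.4% were more negative. The test of that difference was passed by 0% of genes. None of the 40 had an unadjusted p under 0.05 there, and DESeq2 called 0 of them. When 1 library was left out the median stayed negative, from -0.44 without replicate 2 of the Cr(VI)-grown B[a]P group of passage 25 to -0.14 without replicate 2 of its DMSO group or replicate 1 of the B[a]P group, and it was -0.15 without replicate 2 of the control-grown DMSO group.

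Genes of the same pathway outside the 40 were read in the same fit, in which 3.74% of all genes passed as lower, or 13.5% with the replicate block at passage 25. Of 34 other replication genes, 30 had a negative B[a]P difference over the 5 pairs, with a median of -0.27. The pairs were not alike: in Cr(VI)-grown cells of passage 25, 13 of the 34 were negative, with a median of 0.05. All genes there had a median of 0.12 and 41.8% negative, and the other pairs had 25 to 31 of the 34 negative. Over the 5 pairs 1 passed: Dscc1, a subunit of an alternative clamp loader, at -0.96 ± 0.22 (adjusted p = 0.0166). With the block 11 passed as lower. Of 14 other nucleotide supply genes 11 were negative, with a median of -0.26, and 0 passed by edgeR, or 5 as lower with the block. In Cr(VI)-grown cells of passage 25 alone, 11 of the 14 were negative as well. Of 23 regulators of E2F, RB and the G1/S step, 16 were negative, with a median of -0.24. In Cr(VI)-grown cells of passage 25 alone, 10 were negative, with a median of 0.12, against 15 to 20 in the other pairs. Over the 5 pairs 4 fell and 1 rose, or 10 and 1 with the block. Those that fell were Cdk6 at -1.61, E2f8 at -1.27, the cyclin E gene Ccne1 at -0.69 and the cyclin D gene Ccnd1 at -0.60 (adjusted p = 9.46e-05, 0.00454, 0.0381 and 0.0106). The gene that rose was Cdkn1a, which encodes the cyclin-dependent kinase inhibitor p21 and is a target of p53, at 1.84 ± 0.24 (adjusted p = 0.000449).

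Cdkn1a lay between 175.8 and 694.3 CPM in the 10 DMSO libraries and between 440.8 and 1679 CPM in the 10 B[a]P libraries. Under DMSO at passage 20 it stood at 188.1 and 188.0 CPM without and at 560.4 and 694.3 CPM with Cr(VI) in the medium. Over both passages the Cr(VI) difference of Cdkn1a was 1.36 (adjusted p = 0.895, or 0.0353 with the replicate block at passage 25). Its part in the levels of the replication genes was not tested. Of 25 genes of G2 and M, all 25 had a negative B[a]P difference over the 5 pairs, with a median of -0.45. In Cr(VI)-grown cells of passage 25 alone, 15 were negative, with a median of -0.22. Over the 5 pairs 5 fell, or 18 with the block, against the same 3.74% and 13.5% of all genes. The 5 were Bub1b at -0.77, Ube2c at -0.64, Ccnb1 at -0.61, Tpx2 at -0.59 and Cdca8 at -0.53. Of 5 cholangiocyte markers, 4 were tested, all 4 were negative and Sox9 fell, with a log2 difference of -0.72 (adjusted p = 0.0022). Their summed level ranged from 597.4 to 2058 CPM under DMSO and from 445.7 to 1734 CPM under B[a]P, and its part in the result was not tested.

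The genomic span of a gene moved with its B[a]P difference over all genes. Of the 1586 genes spanning over 100 kb, 81.2% had a negative difference over the 5 pairs, with a median of -0.40, while the medians of genes spanning under 10 kb, 10 to 30 kb and 30 to 100 kb were 0.01, 0.07 and -0.02. Pola1 (327.6 kb, chrX:93304766-93632387) and Prim2 (216.0 kb, chr1:33453808-33669808) are the only ones of the 40 genes over 100 kb. The other 38 lie in the 3 shorter classes, with medians of -0.34 for 11 genes, -0.26 for 21 and -0.24 for 6, each under the median of all genes of that class. Across the 40 genes the B[a]P difference had a Pearson correlation of -0.41 with log10 span, and of -0.08 without Pola1 and Prim2 (n = 38). Over the 14296 genes with a span it was -0.23. These are correlations across genes of the same libraries and genes are not independent replicates. Pole2 spans 26.4 kb (chr12:69201773-69228205), so 1 of the genes that passed is long and the other is not.

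**Figure D5:**
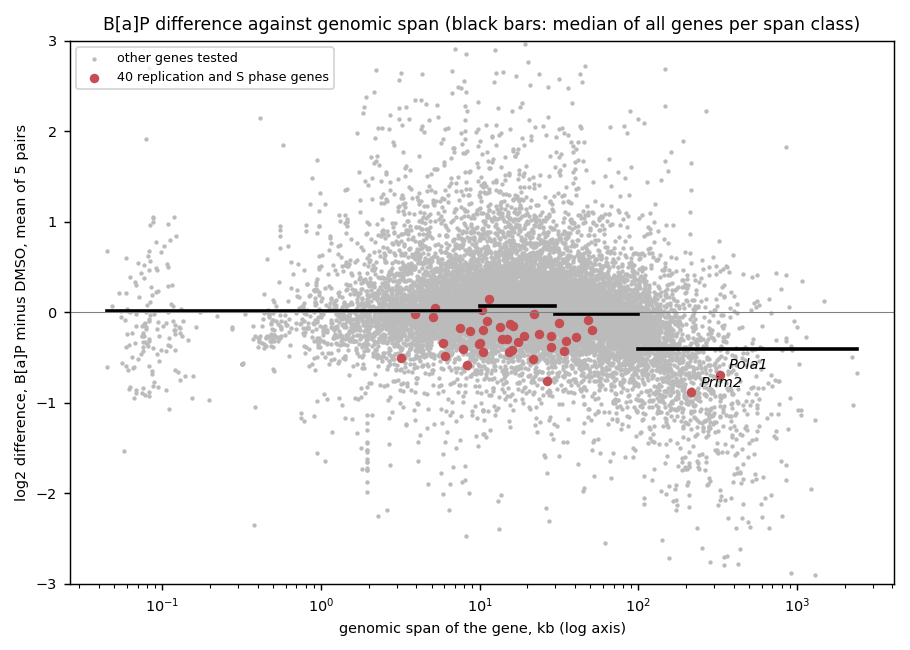
Log2 difference between B[a]P and DMSO, mean of 5 pairs (vertical axis), against genomic span in kb (log axis) for 14296 genes in grey and the 40 genes in red, with the median of each span class as a black bar. Of the grey points, 26 lie beyond 3 on the vertical axis and are not drawn, and the 38 red points under 100 kb lie mostly below the bars.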

How the data were processed

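RNA-seq counts per Entrez gene ID were deposited by the authors as 1 table of raw counts with a column for each of the 20 libraries. Per the submitters' processing notes, TopHat, bcl2fastq, CASAVA 1.8 and DESeq were used, with the build mm10. Which program counted reads, with which annotation and strand setting, is not given in the sources used here. Of 23373 gene IDs, 23275 were matched to a RefSeq symbol, 98 were not, and 3210 had no count. Total counts per library ranged from 20976045 to 37930720. Reads shared by close paralogs are counted with an unknown split.

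Genes were tested in edgeR 4.0.16 (R 4.3.3) with TMM scaling, filterByExpr, quasi-likelihood fits of 1 mean per group to all 20 libraries and 10 residual degrees of freedom. Contrasts of group means were tested two-sided, with Benjamini-Hochberg adjustment over all 14343 genes and a threshold of 0.05. CPM values use TMM-scaled library sizes. The fit was also run on simulated counts with replicate differences shared within each passage. The passage 20 libraries do not bear out that setting, so no conclusion is drawn from the simulation. The alternatives were DESeq2 1.42.0, its size factors, no filter, fits of the compared groups alone, a replicate block, leaving out each library, and, chosen after seeing the data, leaving out the libraries that stood apart and the test of whether the passages differ in their response to B[a]P.

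Whether replicate numbers pair the libraries was read from the correlation of duplicates' deviations from their group means. At passage 25 the 15 correlations between groups lay between 0.81 and 0.92, so the numbers were taken as paired there. At passage 20 the 6 correlations lay between -0.00 and 0.59, so they were not. In control-grown DMSO cells of passage 20, 14.9% of genes with over 50 counts differed between duplicates beyond the 95% limit of counting noise, where 5% would by counting alone, and the libraries were counted as 2. The shares in the other groups lay between 44.6% and 92.1%.

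The 40 genes and all gene lists were chosen with earlier results of these data known. Named with values in every library are Cdc6, Cdt1, Mcm2, Mcm10, Pola1, Pcna, Rrm2 and E2f1 and any of the 40 genes that passed a main test, and for each comparison the 3 lowest and 3 highest differences. Genes outside the 40 are named where they passed in a fixed list, up to 5 per list, with Cdkn1a and Cyp1a1. Of the 5 marker lists, 6 of 9 hepatocyte, 5 of 7 fibroblast, 4 of 6 macrophage, 1 of 5 endothelial and 4 of 5 cholangiocyte markers reached 1 CPM in some library.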

Additional observations from a re-analysis of the deposited data

Results flagged for a closer look

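The B[a]P difference of Pcna had opposite signs at the 2 passages. At passage 20 every B[a]P library lay over every DMSO library in control-grown and in Cr(VI)-grown cells, with log2 differences of 0.28 and 0.62. At passage 25 the 4 same-numbered pairs of these cells were all lower with B[a]P, with differences of -0.61 and -0.07. The difference between the passages was -0.79 ± 0.52 (SE, adjusted p = 1.00, or 0.255 with the replicate block at passage 25), so it did not pass the test. Replicate 2 libraries of passage 25 held 110 to 129 CPM of Pcna and replicate 1 libraries 184 to 347 CPM, and the part of that gap in the result was not tested.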

How the results depend on the processing

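Prim2 and Pole2 kept their call over the 5 pairs under every alternative run, and the median of the 40 genes stayed negative there, from -0.37 to -0.17 when 1 library was left out. The number of genes past the threshold over the 5 pairs was 2 or 3 in those fits, 3 by DESeq2, 18 with a replicate block at both passages or at passage 25 only, 13 without the replicate 2 libraries of passage 25 and 30 without those and the second Cr(VI)-grown DMSO library of passage 20, all lower. With the replicate block at both passages, which the passage 20 libraries do not bear out, 2 genes passed for B[a]P among control-grown cells of passage 20, 1 in those of passage 25, 7 in Cr(VI)-grown cells of passage 25 and 1 in recovered cells, and 2 (Pola1 and Prim2) for Cr(VI) growth over both passages and at passage 20. With the paired block at passage 25 only, these numbers were 1, 1, 5 and 1, then 0 and 1. DESeq2 called 1 gene and the fit of the compared groups alone 26 for B[a]P among control-grown cells of passage 20. Without the replicate 2 libraries of passage 25, 4 genes passed in Cr(VI)-grown cells of passage 25, and 1 (Rpa3, higher) for passage 25 against 20. When 1 library was left out, the median interaction of Cr(VI) growth and B[a]P ranged from -0.18 (without replicate 2 of Cr(VI)-grown B[a]P cells of passage 25) to 0.21, was -0.14 without the replicate 2 libraries of passage 25, and that of recovered growth ranged from -0.67 (without replicate 2 of recovered B[a]P cells) to 0.33. The cause was not tested. No paired analysis was possible for passage 25 against 20 because the numbers are nested in passage. The share of windows with TNGCGTG was 5.41% in the 150 bases from 100 before to 50 after the start, against 13.5% in the longer window. For the counts and medians of these comparisons, 372 values under alternatives were classed as the same as in the main fit and 22 as moved. The tolerance behind these classes is not given here, and the values include counts of 0 that stayed at 0. The totals therefore do not measure how stable the medians were. When 1 library was left out, the B[a]P median in recovered cells ran from -1.02 to -0.0042. That of recovered against control-grown cells under DMSO ran from -0.49 to 0.26. The classes refer to each count or median as a whole, so single genes may have crossed the threshold in either class.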
